A study of Mus musculus with 4 samples.

Results

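The insulin-like growth factor (IGF) ligands, receptors and binding proteins were followed over the mouse brain by taking the features named Igf1, Igf2, Igf1r, Igf2r, Igfbp2, Igfbp3, Igfbp4, Igfbp5, Igfbp6 and Igfbp7, which are 10 of the 19465 features measured. The choice was made by gene name. The data are 4 coronal Visium-FFPE sections, in which RNA of fixed tissue is counted with gene probes on a grid of spots. Each section came from a brain of a male wild-type C57BL/6J pup at P21 (postnatal day 21). In the 2 MF sections the mother's diet held folic acid (FA) at 2 mg/kg, and in the 2 HF sections at 20 mg/kg, and each diet was given from before mating through pregnancy and lactation. The labels do not say whether the pups of a group had different mothers, so p-values measure only the spread between these sections.

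IGF-1 and IGF-2 are growth factors that signal through the receptor kinase encoded by Igf1r, whereas the product of Igf2r binds IGF-2 and carries it to lysosomes. The IGFBP proteins bind the ligands outside the cell, and lengthen or restrict their action. In the rodent brain Igf2 is known for its expression in the choroid plexus and the meninges, and Igf1 is a postnatal factor for neurons and the cells that form myelin.

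After filtering, 13452 spots were kept, 3197 to 3598 per section, and 2472 barcode names occurred in all 4 sections, since each slide area carries the same grid. The section totals were 90098381 and 42423648 UMIs in MF1 and MF2 and 34983708 and 42507273 UMIs in HF1 and HF2, so MF1 was the deepest. The spots were clustered without the 10 genes, and the clusters were named by the region whose marker genes led them. This gave 23 areas. They are the cortical layers 1, 2-3 and 4-6 (L1, L2-3 and L4-6), olfactory areas (OLF), hippocampal CA1, CA2-3, dentate gyrus (DG) and the tissue between the cell layers (matrix), thalamus (TH), hypothalamus (HY), striatum (STR), white matter (WM), medial habenula (MHb), choroid plexus (CP), ependyma (EP), and the brain surface led by genes of the meninges (SURF). The remaining areas stayed unnamed and are given by 2 of their leading genes, such as Tshz2/Prph in the cortex and Ptgds/Myoc in the hippocampus. Cortex (CTX) and hippocampus (HP) were also taken as wholes. A level, in CPM, is the sum of a gene's UMIs over the spots of an area, scaled to the total UMIs of the area. It is given as the mean ± SD of the 4 sections, so this SD also holds any difference between the diets. Since each gene has its own probes, levels were compared between areas and not between genes. A spot holds several cells, and fewer cells of a type and less RNA per cell cannot be told apart.

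All 10 genes were detected in every section. Over whole sections, the gene counted most was Igfbp5, with 13064 UMIs in MF1 and 6004 in HF1, and a UMI was found in 90.0% of the spots of MF1. Igfbp6, a binding protein with a preference for IGF-2, was found in 32.9% of the spots of MF1 and in 16.9% of those of HF2. The median spot held 23543.5 UMIs in MF1 and 11831 in HF2, and the part of depth in these shares was not tested. Moran's I, the score of spatial autocorrelation in the authors' Space Ranger tables, does not use the areas. It was highest for Igfbp4, at 0.260 to 0.390 in the 4 sections, which put the gene above 97.6% to 99.1% of the features of its section. Igfbp5 followed with 0.179 to 0.277, and Igfbp2 with 0.139 to 0.234. Igf2r had the lowest scores, 0.00214 to 0.0258, and stood above 24.7% to 69.6% of the features. Igf1r, with 0.0125 to 0.0449, and Igfbp3, with 0.00468 to 0.0324, were also low.

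**Figure D1:**
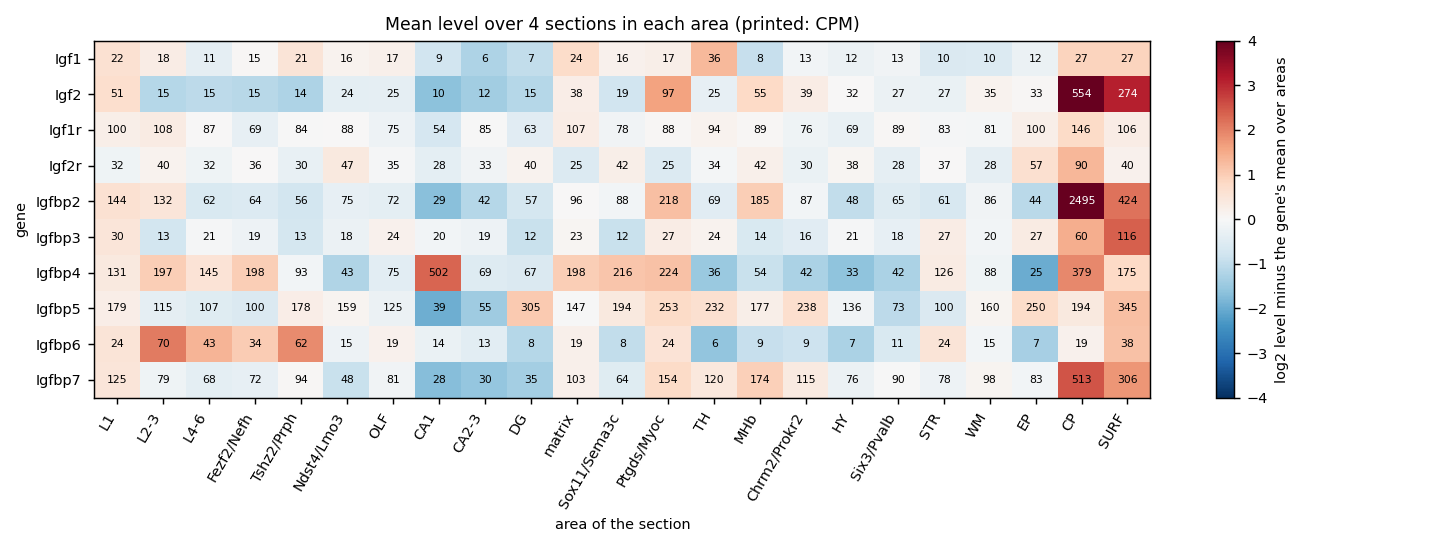
Mean level of each gene (rows) in each of the 23 areas (columns) over the 4 sections. The printed numbers are CPM, and the colour gives the log2 level minus the gene's own mean over areas. Igf2, Igfbp2 and Igfbp7 peak in CP and SURF, Igfbp4 in CA1, Igfbp6 in L2-3 and Igf1 in TH.

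Each area was compared with the mean of all others in 1 model with the section as a block. Of the 230 pairs of a gene and an area, 60 were called higher in the area (edgeR, adjusted p under 0.05 and at least 1.2-fold), beside 16.4% of pairs over all features. CP held 9 of the 10 genes, where 24.9% of all features were called higher, and SURF held 8 of 10, where the share was 21.4%. Ptgds/Myoc, L1 and L2-3 held 5 each, with shares of 7.49%, 10.7% and 17.8%. None of the 10 genes was called higher in HY (17.8%), OLF (12.5%), WM (22%) or the unnamed area Six3/Pvalb (16.5%). In MHb it was 3 of 10 (18.6%), in TH 3 (18%), in STR 3 (13.2%), in the hippocampal matrix 3 (10.2%) and in Tshz2/Prph 3 (12.5%). It was 2 in L4-6 (15.4%), in Fezf2/Nefh (16.4%), in Chrm2/Prokr2 (12.2%) and in Sox11/Sema3c (14.2%). It was 1 in CA1 (20.3%), CA2-3 (20.4%), DG (22.9%), EP (14.9%) and Ndst4/Lmo3 (17.5%). CP was formed by 48 spots in all, 9 to 13 per section, and EP by 7 to 13 per section.

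The highest and the next area of a gene were picked from the same levels that the test between them used, so its p-values are a description. The ligand genes differed in where they peaked. Igf2 was highest in CP, at 511.9, 527.0, 609.1 and 566.8 CPM in MF1, MF2, HF1 and HF2. SURF was next, at 282, 222, 407 and 185 CPM. The lowest section of CP thus lay above the highest of SURF, and CP exceeded SURF by 1.31 ± 0.115 (SE) on the log2 scale (edgeR, adjusted p = 2.6e-18). Ptgds/Myoc came next with 97.3 ± 13.1 CPM, and its range again lay apart from those of SURF above it and MHb below it. The leading genes of this area include Col1a2, a marker of the meninges, and Ttr, a marker of CP. There Col1a2 was at 172.7, 203.7, 238.1 and 179.5 CPM and Ttr at 8305, 4548, 11006 and 7506 CPM in MF1, MF2, HF1 and HF2. The part of meningeal or choroid plexus transcripts in the Ptgds/Myoc levels of Igf2 and the other genes was not tested. From MHb (55.3 ± 10.8 CPM) downwards, the ranges of neighbouring areas overlapped. The lowest levels were in CA1 (10.3 ± 3.57 CPM) and CA2-3 (12.2 ± 5.47 CPM). CP holds 0.778% of all UMIs but held 11.5% of those of Igf2, and SURF held 18.3% with 2.5% of all UMIs.

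Igf1 was highest in TH, at 36.5, 35.3, 43.4 and 27.5 CPM in the same order of sections. TH held 42.2% of the UMIs of Igf1 with 21.5% of all UMIs, and exceeded the mean of the other areas by 1.40 ± 0.0723 (SE) on the log2 scale (adjusted p = 9.2e-35). The next area was SURF with 26.8 ± 7.43 CPM. TH was above it in 4 of 4 sections, by 0.55 ± 0.138 (SE) on the log2 scale (adjusted p = 0.00042), although the ranges overlapped. Within TH, the level was 44.1 CPM in the cluster led by Calb2 and Lhx9, 37.7 CPM in that led by Tcf7l2 and Gbx2, and 32.4 CPM in that led by Prkcd and Tnnt1. Igf1 was lowest in CA2-3 (6.10 ± 1.92 CPM), DG (7.26 ± 1.58 CPM) and MHb (7.67 ± 3.70 CPM). Ranges of all neighbours in the order of areas overlapped.

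The receptor genes varied least. Igf1r was highest in CP, with 129, 161, 143 and 153 CPM in MF1, MF2, HF1 and HF2, and lowest in CA1, with 54.4 ± 10.9 CPM. The highest area mean was 2.69 times the lowest, against 54.0 times for Igf2 and 85.1 times for Igfbp2. L2-3 was second for Igf1r with 108 ± 10.3 CPM, and CP lay above it in every section (log2 difference 0.53 ± 0.121 (SE), adjusted p = 7.9e-05). Igf2r was highest in CP with 69.8, 115, 69.8 and 105 CPM, and in the other areas it ranged from 24.8 ± 7.49 CPM in the hippocampal matrix to 56.7 ± 20.6 CPM in EP. CP was called above EP (adjusted p = 0.0014), though the ranges of these small areas overlapped.

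Among the binding proteins, Igfbp2 had the steepest pattern. Its product is abundant in cerebrospinal fluid. It reached 1967, 2799, 2817 and 2395 CPM in CP, 424 ± 146 CPM in SURF, 218 ± 19.0 CPM in Ptgds/Myoc and 185 ± 43.6 CPM in MHb. CP exceeded SURF by 2.85 ± 0.109 (SE) on the log2 scale (adjusted p = 6.8e-45), and CP held 18.5% of all UMIs of Igfbp2. Igfbp7, which encodes a secreted protein of vessel walls with low affinity for IGFs, followed a similar order, with 513 ± 64.9 CPM in CP, 306 ± 30.4 CPM in SURF and 174 ± 33.3 CPM in MHb. CP was above SURF by 0.99 ± 0.102 (SE) on the log2 scale (adjusted p = 7.8e-15). Igfbp3, whose product is the main IGF carrier of blood plasma, instead peaked in SURF with 135, 115, 124 and 90.0 CPM, and the next area, CP, had 60.2 ± 8.57 CPM (log2 difference 0.76 ± 0.174 (SE), adjusted p = 0.00016). Every other area had a mean of 11.7 to 30.5 CPM for this gene.

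The other binding protein genes had their peaks elsewhere. Igfbp4, whose product mostly restrains IGF action, was highest in CA1, at 438, 504, 559 and 506 CPM, and CP was second with 379 ± 118 CPM, below CA1 in 3 of 4 sections (log2 difference 0.41 ± 0.145 (SE), adjusted p = 0.013). CA2-3 had 69.5 ± 21.4 CPM and DG 66.7 ± 10.6 CPM, so among these named cell layers CA1 was highest. The unnamed hippocampal area Sox11/Sema3c had 216.5 ± 70.1 CPM and was also called higher than the mean of the other areas. Prox1, one of the DG markers used to name areas, was at 601.5, 603.1, 483.3 and 683.5 CPM there in MF1, MF2, HF1 and HF2. In DG it was at 683.8, 692.1, 714.4 and 864.2 CPM. In the cortex Igfbp4 was at 197 ± 5.89 CPM in L2-3, 198 ± 20.7 CPM in Fezf2/Nefh and 145 ± 10.4 CPM in L4-6, where the 5 clusters differed from 54.5 to 211 CPM. TH (36.0 ± 8.99 CPM), HY (33.0 ± 5.74 CPM) and EP (25.2 ± 13.1 CPM) were lowest for Igfbp4.

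Igfbp5, a binding protein held in extracellular matrix, had the opposite order in DG and CA1. It was at 332, 304, 295 and 289 CPM in DG, at 55.2 ± 16.3 CPM in CA2-3 and at 38.8 ± 9.85 CPM in CA1, the lowest of all areas. SURF had the highest mean, 345 ± 92.2 CPM, but its log2 difference from DG was 0.06 ± 0.127 (SE) (adjusted p = 0.69). TH was called higher than the mean of the areas with 232 ± 63.5 CPM. There the 3 clusters ranged from 126 CPM for that led by Prkcd and Tnnt1, through 291 CPM for that led by Tcf7l2 and Gbx2, to 429 CPM for that led by Calb2 and Lhx9. Igfbp6 was highest in areas of the cortex, with 72.7, 82.4, 61.4 and 65.0 CPM in L2-3 and 62.3 ± 6.95 CPM in the unnamed Tshz2/Prph. These areas did not differ beyond their error (log2 difference 0.25 ± 0.152 (SE), edgeR, adjusted p = 0.28). L4-6 was next with 43.1 ± 6.86 CPM, and the lowest level was in TH with 5.64 ± 2.05 CPM. L4-6 and Fezf2/Nefh (33.6 ± 6.7 CPM) were also called higher than the mean of the other areas. Outside the cortical areas, so were SURF (37.6 ± 19.1 CPM) and STR (24.0 ± 8.07 CPM). L1, at 23.7 ± 9.53 CPM, was not (edgeR, adjusted p = 0.19). The cortical layers 4-6 held 30.8% of the UMIs of Igfbp6 and 14.2% of all UMIs.

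**Figure D2:**
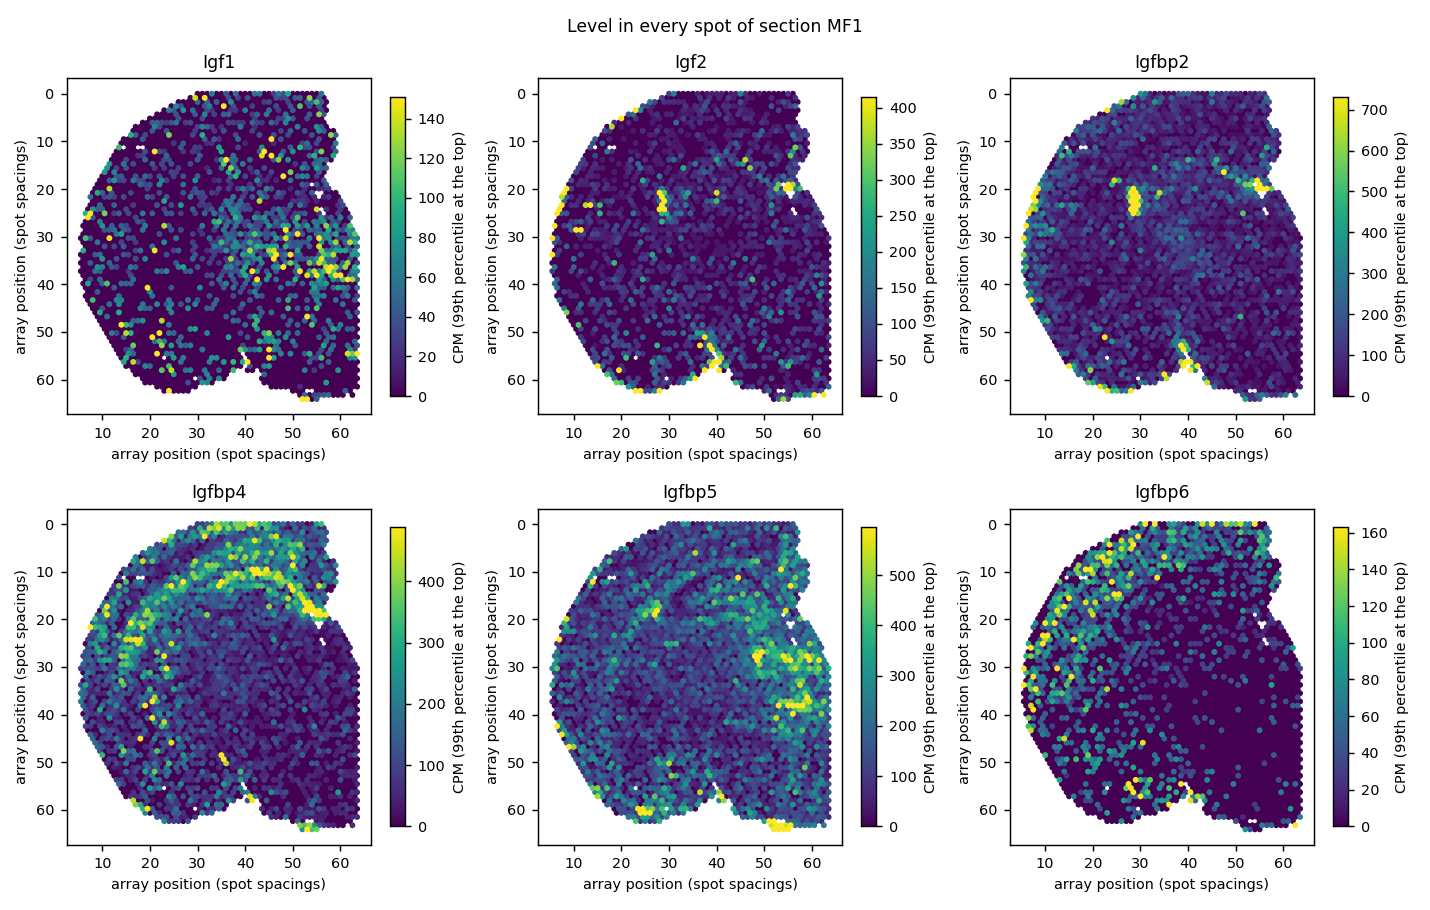
Level of 6 genes in every spot of MF1, the deepest section, drawn at the spots' places on the array in units of the spot spacing. Colour gives CPM per spot, with values above the 99th percentile drawn at the top colour. Igf2 and Igfbp2 light up small groups of spots and the rim, Igfbp4 an arc of cortex and CA1, Igfbp6 the cortex, and Igf1 and Igfbp5 the thalamus.

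Away from CP, the levels of Igf2 and Igfbp2 were lower within a few spots. In MF1, Igfbp2 was at 1967 CPM in CP spots, 386 CPM in spots 1 step away, 144 CPM at 2 steps and 69.9 CPM at 9 steps or more, with SURF spots left out. Igf2 went from 512 to 122, 56.1 and 25.3 CPM at the same steps. The other sections gave 73.2 to 117 CPM of Igf2 at 1 step. Ttr, the main transcript of choroid plexus epithelium, went from 153788 CPM to 21726 CPM at 1 step in MF1, and it was still at 700 CPM at 9 steps or more. How much of the levels beside CP comes from transcripts or tissue of CP itself was not tested. From SURF, Igf2 went from 282 to 41.0 CPM at 1 step in MF1, and Col1a2, a collagen gene of meningeal fibroblasts, from 489 to 57.6 CPM. The MHb spots were split from a cluster they shared with CP, and Ttr was at 6998 to 19427 CPM in them. Its part in the MHb levels of Igf2, Igfbp2 and Igfbp7 was not tested.

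**Figure D3:**
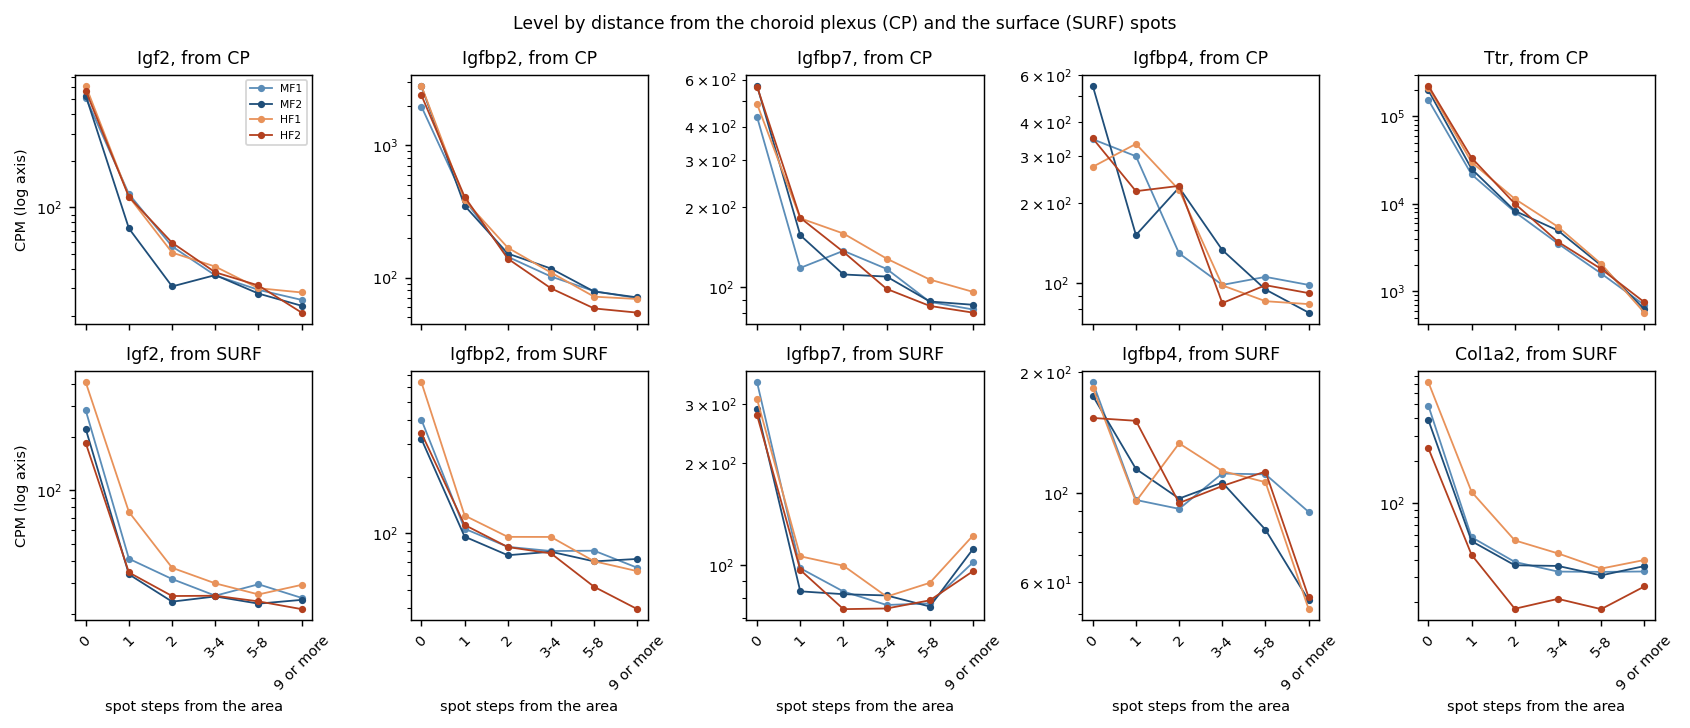
Level (CPM, log axis) of Igf2, Igfbp2, Igfbp7 and Igfbp4 against the number of spot steps from the nearest CP spot (upper row) or SURF spot (lower row), with 1 line per section. Ttr and Col1a2 are shown as the reference transcripts of CP and SURF. Igf2 and Igfbp2 drop within 2 steps of both areas, as the reference transcripts do, and Igfbp4 varies more between sections, from 188 to 96.1 CPM over the first step from SURF in MF1 and from 154 to 151 CPM in HF2.

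Over the 23 areas, the levels of Igf2 and Igfbp7 had a Pearson correlation of 0.90 (log2 of mean CPM plus 1), Igf2 and Igfbp2 one of 0.90, and Igfbp2 and Igfbp7 one of 0.87. Igfbp4 and Igfbp5 had the lowest, -0.23. These points share the same sections and library depths and are a description. Among 11745 features with a mean of at least 5 CPM, the genes most like Igf2 were Slc13a4, Pcolce and Col1a2 (r of 0.96 to 0.97), and among those most like Igfbp2 were Nid2 (0.95) and Pcolce (0.94). Igfbp7 was most like Cpq, Tent5c and Dab2 (all 0.95), and Igfbp3 was most like Col4a1, Adgra2 and Tagln (0.87 to 0.89). Igfbp6 was most like Lamp5, Gm11549 and Pdzrn3 (all 0.88), of which Lamp5 is among the cortical markers used to name areas. Igf2r was most like Lrriq1, Cetn2 and Wdr35 (0.86 to 0.88), and Igfbp5 most like Sri, Cdc42ep4 and Tmem164 (0.83 to 0.85). The best matches were weaker for Igf1r (Hpgd, Vcam1 and Tmem86a, 0.78 to 0.82), Igfbp4 (Pole4, Wwc2 and Tut7, 0.76 to 0.80) and Igf1 (Ier3, Arhgap42 and Arid5a, 0.75 to 0.79).

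In the mouse genome (GRCm38, GENCODE), Igf2 lies on the minus strand at chr7:142650766-142666816, and Igfbp7 on the minus strand at chr5:77349240-77408041. Igfbp2, on the plus strand at chr1:72824503-72852474, and Igfbp5, on the minus strand at chr1:72857932-72874884, are neighbours separated by 5457 bases, and their highest areas were CP and SURF. Since the levels of Igf2, Igfbp2 and Igfbp7 went together over areas, the 250 bases before a start site of each are shown, from RefSeq (GRCm38.p6), 5′ to 3′ on the gene's strand. They are chr7:142657497-142657746 (minus strand), chr1:72824230-72824479 (plus strand) and chr5:77408046-77408295 (minus strand), and none overlaps an annotated untranslated region. The table lists 4 starts for Igf2, with 0 to 2 GC boxes, and a second window for Igfbp2, at chr1:72825137-72825386, with 0. For both genes the window with the most GC boxes is shown, a choice made after they were counted, so these counts are of picked windows. Capitals mark the GC box, GGGCGG, searched on both strands.
Igf2: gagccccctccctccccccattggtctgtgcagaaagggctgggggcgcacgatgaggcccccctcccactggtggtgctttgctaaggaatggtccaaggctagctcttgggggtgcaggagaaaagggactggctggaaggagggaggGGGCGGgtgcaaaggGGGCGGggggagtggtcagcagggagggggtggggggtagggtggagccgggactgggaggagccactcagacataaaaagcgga
Igfbp2: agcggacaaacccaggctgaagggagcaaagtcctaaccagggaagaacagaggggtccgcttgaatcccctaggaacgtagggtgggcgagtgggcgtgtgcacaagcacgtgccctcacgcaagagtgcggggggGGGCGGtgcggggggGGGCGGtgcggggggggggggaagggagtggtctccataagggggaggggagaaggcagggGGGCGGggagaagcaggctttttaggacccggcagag
Igfbp7: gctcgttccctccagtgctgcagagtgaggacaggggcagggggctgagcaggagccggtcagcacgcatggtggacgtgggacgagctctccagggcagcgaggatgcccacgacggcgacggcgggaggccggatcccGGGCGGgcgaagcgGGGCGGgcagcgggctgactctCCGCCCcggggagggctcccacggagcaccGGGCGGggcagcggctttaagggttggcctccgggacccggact
The windows hold 2, 3 and 4 GC boxes. Of the 32851 windows of this length in the table, 32.7% hold at least 1, and 5 of the 10 genes do in at least 1 of their windows. These include the receptor genes Igf1r, with 2 GC boxes, and Igf2r, with 3. G and C make up 66%, 67.2% and 74% of the windows shown, in the order Igf2, Igfbp2 and Igfbp7, and the median of all windows is 52.4%. The TATA box TATAAA, in 12.4% of all windows, and the OTX core TAATCC, in 6.25%, matched none of the windows shown. The E-box CACGTG, in 6.02% of all, matched 1 time in that of Igfbp2, and the CAAT box CCAAT, in 33.9% of all, 1 time in that of Igf2, and neither match overlapped a GC box. A match describes the letters and no binding was measured here.

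The comparison of HF with MF asked whether the higher FA intake of the mother went with other levels of these genes in any area. Over the whole section, 0 of the 10 genes was called (edgeR on UMI sums per section, adjusted p under 0.05 and at least 1.2-fold), and 0% of the 14971 features tested were. Igfbp5 alone had an unadjusted p under 0.05, where 6.81% of all features did. With DESeq2 1 gene did, and the share over all features was not computed. Igfbp5 was at 145 and 153 CPM in MF and 172 and 176 CPM in HF, so both HF sections lay above both MF sections. Its log2 fold change was 0.21 ± 0.0733 (SE, adjusted p = 0.70). The 2 diets did not overlap in 3 of the 10 genes, and in 39.6% of all features. The other 2 genes were Igf1r, at 80.8 and 82.6 against 83.0 and 93.9 CPM, and Igf2r, at 36.2 and 36.4 against 32.0 and 35.6 CPM. With 2 sections against 2, the exact permutation test cannot give a two-sided p below 0.333, and it gave that value in these 3 genes. For the other 7 genes the log2 fold changes ranged from -0.15 (Igfbp6) to 0.16 (Igf2). A fit without 1 section has a single section in a diet, so it does not measure the spread within that diet. Without HF1 the log2 fold change was -0.34 for Igf1 and -0.31 for Igfbp6. Without HF2 it was 0.34 for Igf2 and 0.31 for Igf1, so the sign for Igf1 depended on which HF section was kept.

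In the 16 named areas with at least 10 spots in every section, which include CTX and HP as wholes besides their parts, 150 pairs of a gene and an area passed the filter on low counts. These were 9 of the 10 genes in CA2-3, 7 each in CA1, DG and MHb, and all 10 in every other area. Of these pairs 0 were called, where 0.104% of pairs over all features were, and DESeq2 called 0 as well (0.0485%). With the replicate block the count was also 0 (0.22%). The Wilcoxon test over spots, which takes the spots of a section as independent, called 15 pairs (7.62%), and over whole sections 0 genes (4.36%). By area, 0.0516% of features were called in CTX, 0.242% in HP, 0.0314% in L1, 0.416% in L2-3, 0.103% in L4-6, 0.0441% in OLF, 0.0815% in CA1, 0.294% in CA2-3, 0.196% in DG, 0.0381% in the matrix, 0.0626% in STR, 0.0158% in WM, 0.183% in MHb, and 0% in TH, HY and SURF. An unadjusted p under 0.05 was found for 21 pairs, or 14% of them, beside 6.42% over all features. Pairs of CTX or HP share spots with those of their parts, so they are not separate. With DESeq2 such a p was found for 6 pairs, and the share over all features was not computed. Of the 21, 8 had the higher level in HF. The smallest adjusted p was 0.11. The 2 diets did not overlap in 55 of the 150 pairs, or 36.7%, beside 35.6% over all features. By area these were 4 of 10 genes in CTX (37.3% of all features), 5 of 10 in HP (38.1%), 3 of 10 in TH (38.3%), 4 of 10 in HY (38.3%), 5 of 9 in CA2-3 (34.3%) and 5 of 7 in MHb (34.2%), with 0 of 10 in L1 (34.3%) and 1 of 10 in SURF (31.6%) at the low end. In the other areas 2 to 4 genes did not overlap, beside 33.6% to 36.5% of all features.

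**Figure D4:**
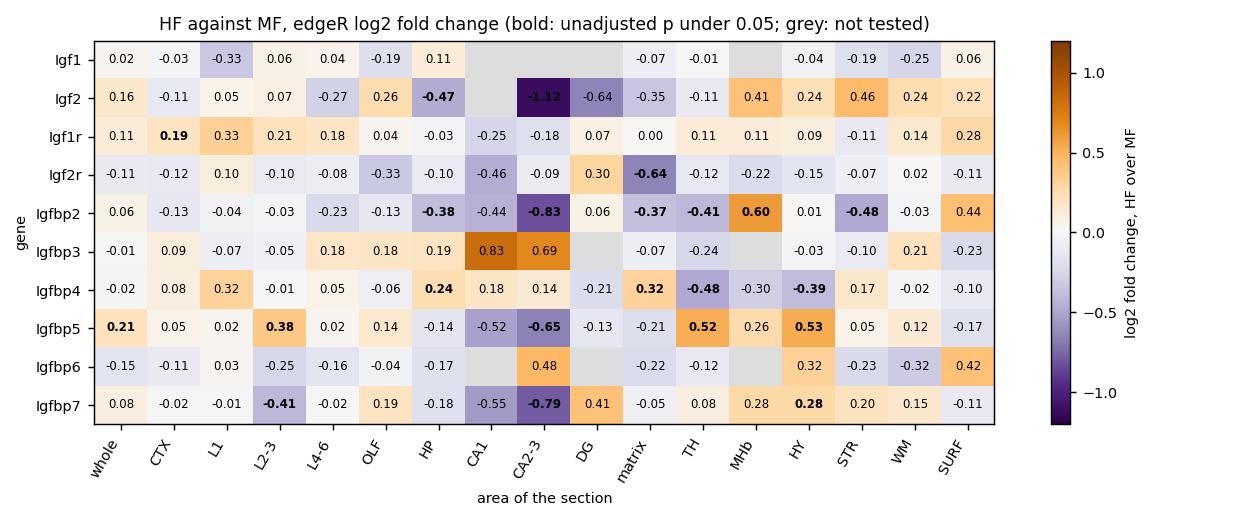
Log2 fold change of each gene (rows) between HF and MF in the whole section and 16 areas (columns), where positive values are higher in HF. Bold values have an unadjusted p under 0.05, and grey cells did not pass the filter on low counts. None of the values passed the adjusted threshold.

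The differences of Igfbp5 that were higher in HF were largest in TH and HY. In TH it was at 188 and 193 CPM in MF1 and MF2 and at 224 and 325 CPM in HF1 and HF2 (log2 fold change 0.52 ± 0.159 (SE), adjusted p = 0.61). In HY it was at 108 and 114 CPM in MF and at 138 and 184 CPM in HF (0.53 ± 0.145 (SE), adjusted p = 0.73). Both HF sections lay above both MF sections in each area, and HF2 lay furthest. The clusters of TH differed in this. In that led by Tcf7l2 and Gbx2 the levels were 248 and 252 CPM in MF and 238 and 425 CPM in HF, so HF1 was the lowest section. In that led by Prkcd and Tnnt1, where Igfbp5 is low, they were 112 and 114 against 123 and 157 CPM, and in that led by Calb2 and Lhx9 392 and 409 against 436 and 477 CPM, with both HF sections above MF. The Prkcd and Tnnt1 cluster had 294 and 288 spots in MF and 187 and 198 spots in HF, and Prkcd itself was at 1158 and 1168 CPM in TH of MF and at 1071 and 785 CPM in HF. In HY the cluster mix also moved, with 309 and 152 spots of the cluster led by Gpx3 and Otp in MF and 120 and 55 in HF. Igfbp5 was above MF in both HF sections in that cluster and in the one led by Dlk1 and Arhgap36, with log2 fold changes of 0.51 and 0.72, of which neither was called. The part of the cluster mix in the whole areas was not tested. Without HF1, which leaves HF2 as the single HF section, the log2 fold change of Igfbp5 was 0.77 in TH and 0.74 in HY. Taken relative to its difference in CTX, it was 0.66 in TH and 0.64 in HY without HF1. Without HF2 these relative values were 0.23 and 0.28.

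In the cortex and hippocampus Igfbp5 varied by part. Its log2 fold change was 0.05 in CTX and -0.14 in HP, with 0.38 ± 0.132 (SE) in L2-3, at 91.7 and 111 CPM in MF against 133 and 124 CPM in HF, and -0.65 ± 0.237 (SE) in CA2-3, at 63.6 and 71.2 against 52.3 and 33.7 CPM, the largest difference of the gene in size. In CA1 it was -0.52 ± 0.294 (SE), at 52.4 and 38.5 against 29.1 and 35.3 CPM. In SURF the HF sections stood on either side of MF, at 433 and 216 CPM against 375 and 356 CPM, and without HF1 the log2 fold change of the gene there was -0.72. The meningeal fibroblast markers in SURF summed to 3296 and 1409 CPM in HF and 2378 and 1806 CPM in MF, so HF1 was highest and HF2 lowest in both, and their part was not tested.

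Igfbp4 was the 1 member whose difference between the diets was called as varying with the area. In TH it was at 48.3 and 35.5 CPM in MF and 33.5 and 26.8 CPM in HF (log2 fold change -0.48 ± 0.171 (SE)), and in HY at 39.8 and 34.6 against 31.3 and 26.1 CPM (-0.39 ± 0.144 (SE)). In HP, by contrast, it was at 192 and 182 CPM in MF and 229 and 212 CPM in HF (0.24 ± 0.0933 (SE)), and in the hippocampal matrix at 167 and 187 against 221 and 216 CPM (0.32 ± 0.142 (SE)). None of these passed the threshold in its own area. Without HF1, the log2 fold change of Igfbp4 was -0.67 in TH and -0.52 in HY. Taken relative to its difference in CTX, it was -0.745 in TH and -0.589 in HY without HF1, and -0.434 and -0.371 without HF2. The test of the area by diet terms over CTX, HP, TH, HY, STR and WM called 14 of 14030 features, or 0.0998%, with Igfbp4 among them. Its log2 differences spanned 0.74 over the 6 areas (edgeR, adjusted p = 0.020). Relative to CTX, the difference was lower by 0.56 in TH and by 0.48 in HY, and higher by 0.17 in HP. With all sections kept, the call was lost with spots thinned to 5000 UMIs (edgeR, adjusted p = 0.84) and in interior spots (0.14). It was also lost at the lower clustering resolution (0.081) and with genes scaled over all spots (0.20). Fits without a section leave 1 section in a diet, so nothing is concluded from their calls. The log2 differences of Igfbp4 spanned 0.73 without MF1 and 0.90 without MF2. Without HF1 the span was 0.88 for Igfbp4 and 0.92 for Igfbp5, and without HF2 it was 0.66 for Igfbp4 and 0.41 for Igfbp5. With all sections the adjusted p of Igfbp5 was 0.090 (edgeR). Unadjusted p-values under 0.05 were found for 4 of the 10 genes, Igfbp4, Igfbp5, Igfbp7 and Igf2, beside 7.25% of all features.

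**Figure D5:**
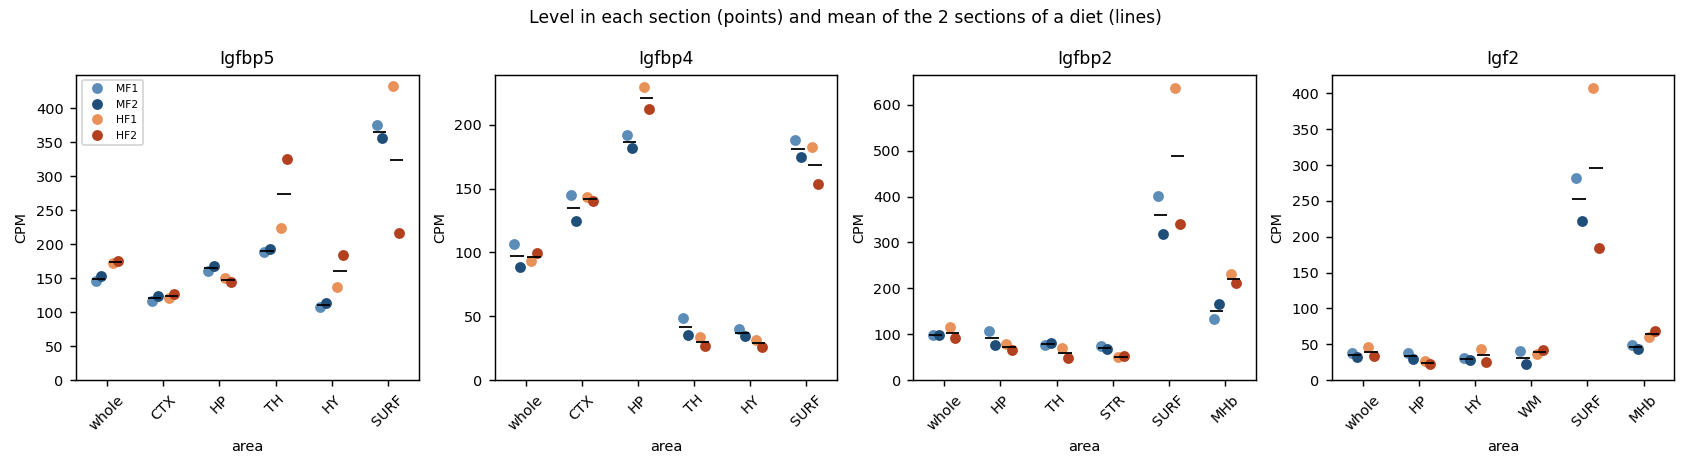
Level (CPM) of 4 genes in each section (points, with MF in blue and HF in orange) and the mean of the 2 sections of a diet (lines), in the whole section and selected areas. Igfbp5 lies higher in both HF sections in TH and HY, Igfbp4 lies lower in both there and higher in HP, and the SURF values of HF1 and HF2 lie on either side of those of MF for Igfbp5 and Igf2.

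Igfbp2 had the smallest adjusted p among the pairs, in MHb, at 134 and 166 CPM in MF and 230 and 211 CPM in HF (log2 fold change 0.60 ± 0.163 (SE), adjusted p = 0.11). The list of 11 choroid plexus markers moved with it. Their summed level in MHb was 7308 and 10605 CPM in MF and 16768 and 20059 CPM in HF, with no marker at 0, and the part of these spots' choroid plexus transcripts in the result was not tested. Without HF2 the log2 fold change of Igfbp2 in MHb was 0.66. Igf2 in MHb was at 49.3 and 43.9 against 59.9 and 68.2 CPM. In SURF the log2 fold change of Igfbp2 was also above 0, at 0.44 ± 0.251 (SE), with overlapping diets (402 and 317 against 637 and 341 CPM). Differences of the other sign were -0.41 ± 0.168 (SE) in TH (75.7 and 81.0 against 70.6 and 47.2 CPM), -0.48 ± 0.170 (SE) in STR (74.3 and 66.6 against 49.8 and 51.9 CPM) and -0.83 ± 0.271 (SE) in CA2-3 (69.7 and 34.8 against 33.8 and 31.6 CPM). With all sections, the log2 fold change of Igfbp2 was 0.01 ± 0.231 (SE) in HY and -0.38 ± 0.143 (SE) in HP. Without HF1, which leaves HF2 as the single HF section, it was -0.73 in TH, -0.44 in HY and -0.52 in HP. In SURF the log2 fold change of Igfbp2 was 0.79 without HF2. HF1 was also the highest section there for the sum of the meningeal fibroblast markers (2378 and 1806 CPM in MF, 3296 and 1409 CPM in HF), whose part was not tested. In CA2-3, MF1 stood apart from the other 3 sections in Igfbp2, and the choroid plexus markers summed to 2182 CPM there, against 708 CPM in MF2 and 468 and 814 CPM in HF, where 3 to 4 of the 11 markers were at 0. Igf2 in CA2-3 (19.5 and 13.2 against 8.44 and 7.62 CPM, -1.12 ± 0.473 (SE)) and Igfbp7 (48.0 and 28.1 against 18.6 and 27.2 CPM, -0.79 ± 0.305 (SE)) were also highest in MF1. All 10 markers of oligodendrocytes had lower HF means in TH, STR and CA2-3, with sums in TH of 28219 and 29900 CPM in MF and 23480 and 23885 CPM in HF, and their part in the values of Igfbp2 was not tested.

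Igf2 in HP was at 37.0 and 28.8 CPM in MF and 26.5 and 22.1 CPM in HF (log2 fold change -0.47 ± 0.167 (SE), adjusted p = 0.44). The oligodendrocyte markers in HP summed to 15959 and 15045 CPM in MF and 10814 and 9973 CPM in HF, and the choroid plexus markers to 3312 and 1619 against 2453 and 2060 CPM, and their part was not tested. In SURF the HF sections were the highest and the lowest for Igf2, at 407 and 185 CPM against 282 and 222 CPM in MF. The 14 markers of meningeal fibroblasts had the same order of sections there, with sums of 3296 and 1409 CPM in HF and 2378 and 1806 CPM in MF. Without HF2, the log2 fold change of Igf2 was 0.65 in SURF and 0.56 in HY, and without HF1 it was -0.60 in HP. Igf1 had no pair with an unadjusted p under 0.05, and in TH, its highest area, its log2 fold change was -0.01. In TH its HF sections were again the highest and the lowest, at 43.4 and 27.5 CPM. Igf1r was at 81.2 and 82.1 CPM in CTX of MF and 88.8 and 96.3 CPM in HF (0.19 ± 0.0833 (SE), adjusted p = 0.65). Igf2r was at 35.2 and 24.3 against 17.6 and 22.0 CPM in the hippocampal matrix (-0.64 ± 0.285 (SE), adjusted p = 0.86), and Igfbp7 at 64.8 and 72.1 against 82.9 and 84.3 CPM in HY (0.28 ± 0.102 (SE), adjusted p = 0.73). In HY all 12 measured endothelium markers had a higher HF mean (sums of 547 and 589 CPM in MF and 700 and 608 CPM in HF), as did 13 of 14 meningeal fibroblast markers (168 and 164 against 273 and 139 CPM), and their part in the values of Igfbp7 was not tested. In L2-3 Igfbp7 was at 97.2 and 79.2 against 81.6 and 58.1 CPM (-0.41 ± 0.159 (SE)), with overlapping diets, and its log2 fold change was -0.62 without HF1. Igfbp3 and Igfbp6 had no pair with an unadjusted p under 0.05. The log2 fold change of Igfbp6 was -0.43 in L4-6 without HF1 and 1.02 in SURF without HF2. Its SURF levels, 32.0 and 31.6 CPM in MF and 65.3 and 21.6 CPM in HF, were highest in HF1 and lowest in HF2. The meningeal fibroblast markers had the same highest and lowest sections, and their part was not tested.

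Other genes of the pathway were read from a list of 65 genes, of which 64 are features. The list holds relatives of the family, proteases of the binding proteins, adaptors at the receptor, the PI3K, AKT and mTOR branch, the RAS and ERK branch and regulators of Igf1 by growth hormone. Over the whole section 60 were tested, 0 was called, and 3 had an unadjusted p under 0.05 (edgeR). Their median log2 fold change was 0.02, beside 0.00 over all features. In the areas 0 of 771 pairs were called, and 44, or 5.71%, had an unadjusted p under 0.05. The 3 genes with the largest changes over the whole section were Irs4, Igfbpl1 and Rictor. Irs4, an adaptor of the insulin and IGF receptors, was at 22.9 and 28.9 CPM in MF and 25.4 and 10.7 CPM in HF, so the change rested on HF2. Igfbpl1, a relative of the binding proteins, was at 7.09 and 6.79 against 8.29 and 11.4 CPM (log2 fold change 0.50 ± 0.175 (SE), adjusted p = 0.70). Rictor, a subunit of an mTOR complex, was at 2.28 and 2.55 against 2.66 and 0.965 CPM.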

How the data were processed

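Visium-FFPE sections of P21 brains, 2 MF and 2 HF, were analysed. The authors mapped probe reads with Space Ranger to mm10 (GRCm38), and deposited raw UMI counts per spot for 19465 features. The Moran's I of the deposited tables is a score of spatial autocorrelation. Genes were placed with GENCODE vM21, in which 19451 features were matched.

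A spot was kept at 500 UMIs and 250 genes or more, which left out 18. The section totals of 34983708 to 90098381 UMIs limit the precision unequally. Spots were clustered on 2000 variable genes scaled within each section (30 principal components, 20 neighbours, Leiden resolution 1, leidenalg 0.10.2), with the 10 genes and the pathway list held out. A cluster needed 3 markers among its 50 leading genes for a name. Splitting a mixed cluster of CP and MHb, and clustering CTX and HP again, were decided after the clusters were seen. The members and lists were chosen with earlier results of these data known. All 10 members are named. The genes most like a member, and the 3 pathway genes, were taken by the rules given beside them, and 1 gene most like Igfbp2 and 1 cluster of HY are not reported here.

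UMIs were summed per section and area and tested by quasi-likelihood in edgeR 4.0.16 (TMM, filterByExpr, Benjamini-Hochberg over all features tested). Alternatives were DESeq2 1.42.0, a replicate block, spots thinned to 5000 UMIs, scaling by library size alone, the low genes kept in, each section left out, interior spots, other clusterings, and the study's Wilcoxon test over spots on ln(CPM + 1). Spots of a section are not independent, so that test was not the main one. The scripts were tested on simulated data.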

Additional observations from a re-analysis of the deposited data

Results flagged for a closer look

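The difference of Igfbp4 between HF and MF varied between areas by 0.74 on the log2 scale, by a test of the area by diet terms (edgeR, adjusted p = 0.020). Igfbp4 was at 48.3 and 35.5 CPM in TH of MF and 33.5 and 26.8 CPM in HF, and at 192 and 182 against 229 and 212 CPM in HP. A fit with a section left out has a single section in a diet, so nothing is concluded from its call. The span was 0.73 without MF1, 0.90 without MF2, 0.88 without HF1 and 0.66 without HF2. With all sections kept, the call was lost with thinned spots (edgeR, adjusted p = 0.84) and in interior spots (0.14). It was also lost at the lower clustering resolution (0.081) and with genes scaled over all spots (0.20). The differences of TH, HY and HP relative to CTX kept their signs (lower in TH and HY, higher in HP) in each alternative run. These runs reuse the same sections, so the kept signs are no independent support.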

How the results depend on the processing

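Alternatives marked as added were chosen after seeing the data. A fit between the diets with 1 section left out has a single section in a diet. It does not measure the spread within that diet, so nothing is concluded from its calls. Over the whole section, the count of members called stayed at 0 except when a section was left out, where it ranged from 0 to 2. The 2 were Igf1 and Igfbp6 without HF replicate 1 (7.68% of all features called) and Igf1 and Igf2 without HF replicate 2 (5.55%), and the sign for Igf1 was opposite in these fits. The count of member and area pairs called was 0 with the replicate block and ranged from 0 to 11 when a section was left out. The 11 came without HF replicate 1 (2.41% of all pairs), 5 without HF replicate 2 (1.07%) and 1, Igfbp2 in CP, without MF replicate 2 (0.186%). It was 2 without a filter on low counts (Igfbp5 in TH and HY, 0.351% of all pairs), 2 at resolution 2 (Igfbp2 and Igf2 in CP, 0.205%), 1 with genes scaled over all spots (Igfbp4 in CA2-3, 0.0525%), and 15 by the Wilcoxon test over spots (7.62% of all pairs), which takes spots as independent. Samples with equal replicate numbers were not taken as pairs (correlations of their deviations from -0.166 to 0.102 over areas), and the crossed pairing, added, gave 2 pairs (0.297%). The members with an area by diet difference were 1 in the main analysis, where 0.0998% of all features were called. They were 4 without a filter, and 0 with thinned spots, with interior spots, at resolution 0.5 and with genes scaled over all spots. No share over all features was computed for these alternatives, so nothing is read from their counts about the members. The sections already enter the area by diet fit as blocks. The 60 pairs called higher in an area, beside 16.4% of pairs over all features, became 23 in interior spots (5507 spots). They were 42 with thinned spots and 52 to 59 when a section was left out, and no share over all features was computed for these runs. With the highest area set against the next, 8 of 10 members were called. Those areas were picked from the same levels and no share over all features was computed, so nothing is read from this count. Over all features, the 186 pairs of gene and area called were 87 with DESeq2, 395 with the replicate block, 898 without a filter, 113 with thinned spots, 30 in interior spots, 389 at resolution 2, 88 with genes scaled over all spots, 19475 by the Wilcoxon test, and 123 to 4517 when a section was left out. The 22 differences with an unadjusted p under 0.05 kept their sign in all 351 values under alternatives. They were picked by that p-value from the same sections that the alternatives reuse, so a kept sign is no independent support. Depth limits the low genes, since Igf1, Igf2, Igfbp3 and Igfbp6 could not be tested in 1 or more of CA1, CA2-3, DG and MHb.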
